A study of Mus musculus with 31 samples.

Results

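The complement components described here are 9 genes of the blood and tissue defence cascade, *C1qa*, *C1qb*, *C1qc*, *C1ra*, *C1s1*, *C4b*, *C2*, *C3* and *Cfb*, out of the 55379 genes counted in the lactating mouse mammary gland. *C4b* was chosen because it was higher with fluoxetine in an earlier fit of these same libraries, and the other 8 were chosen by function to see whether the rest of the cascade followed it. All 9 had enough counts to enter the tests, as did 14362 genes in all. C57BL/6J females bred from 6 weeks of age ate a breeder diet with 4 mg/kg folic acid (FA) or an FA diet with 24 mg/kg, starting 2 weeks before mating. From embryonic day 13 they received daily injections of saline or of 20 mg/kg fluoxetine, a selective serotonin reuptake inhibitor. Glands were taken on lactation day 10. By their labels the 31 libraries, 1 per dam, comprised 8 breeder diet + saline, 7 breeder diet + fluoxetine, 8 FA diet + saline and 8 FA diet + fluoxetine. The study's methods put the missing dam in another group than the labels do, and the labels were followed. Total counts ran from 15412542 to 36000439 per library, and the 20 most abundant genes, mainly milk proteins, took 39.3% to 81.0% of them. Values are counts scaled to library size (CPM) after TMM scaling, and changes are log2 fold changes with their standard error (SE). The false discovery rate (FDR) was set at 10% over all genes tested.

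Complement is a chain of proteins in which each activated member cuts or binds the next. In the classical pathway the recognition molecule C1q, built from the products of *C1qa*, *C1qb* and *C1qc*, binds antibody or dying cells, and of the proteases attached to it C1r activates C1s, which cuts C4 and C2. The C4 and C2 fragments form an enzyme that cuts C3, the step at which all routes meet, and factor B, the product of *Cfb*, drives the alternative pathway that amplifies C3 cleavage. The liver makes most circulating complement, macrophages are the known main source of C1q, and C3 and C4 are acute-phase proteins whose genes respond to inflammatory signals in many tissues.

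The annotation places 4 of the 9 genes on chromosome 17 (GRCm39): *C4b* (ENSMUSG00000073418, chr17:34947354-34962912), *Cfb* (ENSMUSG00000090231, chr17:35074852-35081559), *C2* (ENSMUSG00000024371, chr17:35081578-35117241) and, further along, *C3* (ENSMUSG00000024164, chr17:57510964-57535155). The C1q genes lie side by side on chromosome 4, *C1qb* (ENSMUSG00000036905) at chr4:136606009-136613511, *C1qc* (ENSMUSG00000036896) at chr4:136616466-136620376 and *C1qa* (ENSMUSG00000036887) at chr4:136623223-136626161. The protease genes *C1ra* (ENSMUSG00000055172, chr6:124489364-124500402) and *C1s1* (ENSMUSG00000038521, chr6:124507297-124559389) are neighbours on chromosome 6. *C1ra* is on the plus strand and the other 8 are on the minus strand. *C4b* has a close copy, *C4a* (ENSMUSG00000015451, chr17:35028069-35042440), whose coding sequence was identical at 5003 of 5202 aligned bases, or 96.2%. So that it can be seen how reads of the copies are told apart, the 60-base stretch of exon 21 with the most differences is shown for both, as the transcribed (minus) strand of GRCm39 at chr17:34954404-34954463 for *C4b* and chr17:35035062-35035121 for *C4a*, with the 13 differing bases in capitals.
C4b: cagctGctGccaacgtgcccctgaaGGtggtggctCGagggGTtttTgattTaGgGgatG
C4a: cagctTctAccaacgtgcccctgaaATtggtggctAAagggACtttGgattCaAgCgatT
A window of 130 bases, about the length of a trimmed read, was found unchanged in *C4a* for 557 of the 5306 windows of the *C4b* transcript, or 10.5%. *C3*, *C1qa*, *C1qb* and *C1qc* shared no such window with another gene, *C1s1* shared 4.16% of its windows with *C1s2*, and *C1ra* shared 29.6%, mainly with *C1rb*. *C2* and *Cfb* are less certain. The predicted gene *Gm20547* reads through both, holds 49.9% of the *C2* windows and 61.9% of the *Cfb* windows, and had 0 counts in these libraries. Reads that lie wholly in the shared exons could not be given to either gene by the counting rule, so the counts of *C2* and *Cfb* may rest on part of each transcript. On the opposite strand *Nelfe* overlaps 1704 of the 3420 exon bases of *Cfb* and *Zbtb12* 191 of the 4315 of *C2*, and the strand option of the counting is not known here, so reads there may also have been left uncounted.

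Compared per kilobase of transcript, *C1qa* had the highest median level over the 31 libraries, 16.95 CPM per kb. *C4b* followed at 12.1, then *C1qb* at 5.57, *C1qc* at 5.27, *C3* at 2.35, *C1s1* at 1.41, *C1ra* at 0.753, *C2* at 0.376 and *Cfb* at 0.0725 CPM per kb. The levels of *C2* and *Cfb* may be too low, since reads in their shared exons may have been left uncounted. *C1qa* was above *C4b* in 15 of the 16 saline libraries but in 6 of the 15 fluoxetine libraries. This change of order is not independent of the choice of *C4b* for being higher with fluoxetine, and is a description only. *C1qb* and *C1qc* were not separated, with *C1qb* the higher in 14 of 31 libraries, whereas from *C3* down each gene was below the one before it in at least 27 libraries, and *C1qb* was below *C4b* in 26. *C4b* ran from 1.98 to 134.8 CPM per kb and *C1qa* from 9.46 to 50.5. *C4a* was far below its copy, with a median of 0.138 CPM per kb against 12.1 for *C4b*.

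The library of FA diet + fluoxetine dam 3, called dam 3 where no other group is named, stood apart from all others, and results below are given with and without it where leaving it out moved them much. Its total was ordinary at 18919573 counts, but the 20 most abundant genes took only 39.3% of them, against 60.5% to 81.0% in the other 30, and its TMM factor was 3.04 against 0.716 to 1.57. It was the highest library for 8 of the 9 components, all but *C4b*, where 21.9% of the genes tested peaked in it. Relative to the median of the other 30 libraries, *C1ra* was 13.8-fold, *C1s1* 9.64-fold, *C3* 9.61-fold, *Cfb* 8.22-fold, *C2* 7.62-fold, *C1qc* 4.17-fold, *C1qa* 2.99-fold, *C1qb* 2.65-fold and *C4b* 2.30-fold higher there. For the 8 components highest in dam 3, leaving it out by itself lowers the values with fluoxetine over both diets, with FA and for the interaction. Their p-values without dam 3 are therefore descriptions.

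Markers of the cell types in the gland moved with these values in the same library. The 7 secretory luminal markers, led by the whey protein gene *Wap*, summed to 39980 CPM in dam 3 and to 215200 to 673000 CPM in the others. This sum is carried by the milk protein genes, and 5 of the 7 genes were below every other library, among them the luminal transcription factor gene *Elf5* (149.4 CPM against 420.1 to 740.3). Of the keratin genes in the list *Krt18* was highest in dam 3 (149.2 CPM against 46.35 to 93.62) and *Krt8* was near the middle (59.04 CPM against a median of 60.25). The 6 fibroblast markers, led by the collagen gene *Col3a1*, summed to 936.7 CPM against 52.1 to 295.9, and the 7 macrophage markers, led by the lysozyme gene *Lyz2*, to 162.6 CPM against 23.1 to 51.9. All 6 fibroblast genes and 6 of the 7 macrophage genes were above every other library, and *Mertk* was below every other one (1.75 CPM against 1.85 to 8.86). The 5 adipocyte markers, led by *Fabp4*, summed to 828.1 CPM against 144.9 to 370.1, while *Adipoq* and *Lep* were within the range of the others. The T cell sum was 3.25-fold the median of the others through *Cd3e*, *Cd2* and *Cd3d*, whereas *Trac*, the T cell marker with the highest mean CPM over all libraries, and *Cd3g* had 0 counts in dam 3 and all 5 genes were below the count filter. The endothelial sum was 0.975-fold, but its genes lay apart, with *Kdr* below every other library (6.68 CPM against 8.14 to 20.66) and *Pecam1* above every other one (17.64 CPM against 5.66 to 15.75). The myoepithelial sum, led by *Acta2*, was 1.18-fold the median of the others, the neutrophil sum, led by *Csf3r*, 0.700-fold and the B and plasma cell sum, led by *Jchain*, 0.495-fold. The skeletal muscle sum, led by *Myh4*, was 0.437 CPM in dam 3 and 0.651 to 4514 CPM elsewhere. Hepatocyte markers were nearly absent, with 231 counts over all 31 libraries for 5 genes led by *Apoa2* and 0 counts for *Ttr*. In RNA of whole tissue, fewer cells of a type and less RNA per cell cannot be told apart, and the part of cell composition in the complement values was not tested.

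For correlations, each marker list was taken as the mean log2 CPM of its tested genes, not as the sum. Across all libraries, *C1s1* and these list means were compared as deviations from group means. Pearson r was 0.888 with the fibroblast mean, 0.804 with the macrophage mean and -0.827 with the luminal mean. Without dam 3 these were 0.567, 0.114 and -0.178. For *C4b* the same values were -0.008, 0.238 and -0.226 over 31 libraries and -0.275, 0.193 and -0.171 over 30. *C1qb* had an r of 0.834 with the macrophage mean, and 0.511 without dam 3. *C3* had one of 0.784 with the adipocyte mean, and 0.673 without dam 3. These correlations are descriptions over libraries that share the scaling by milk gene content.

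**Figure D1:**
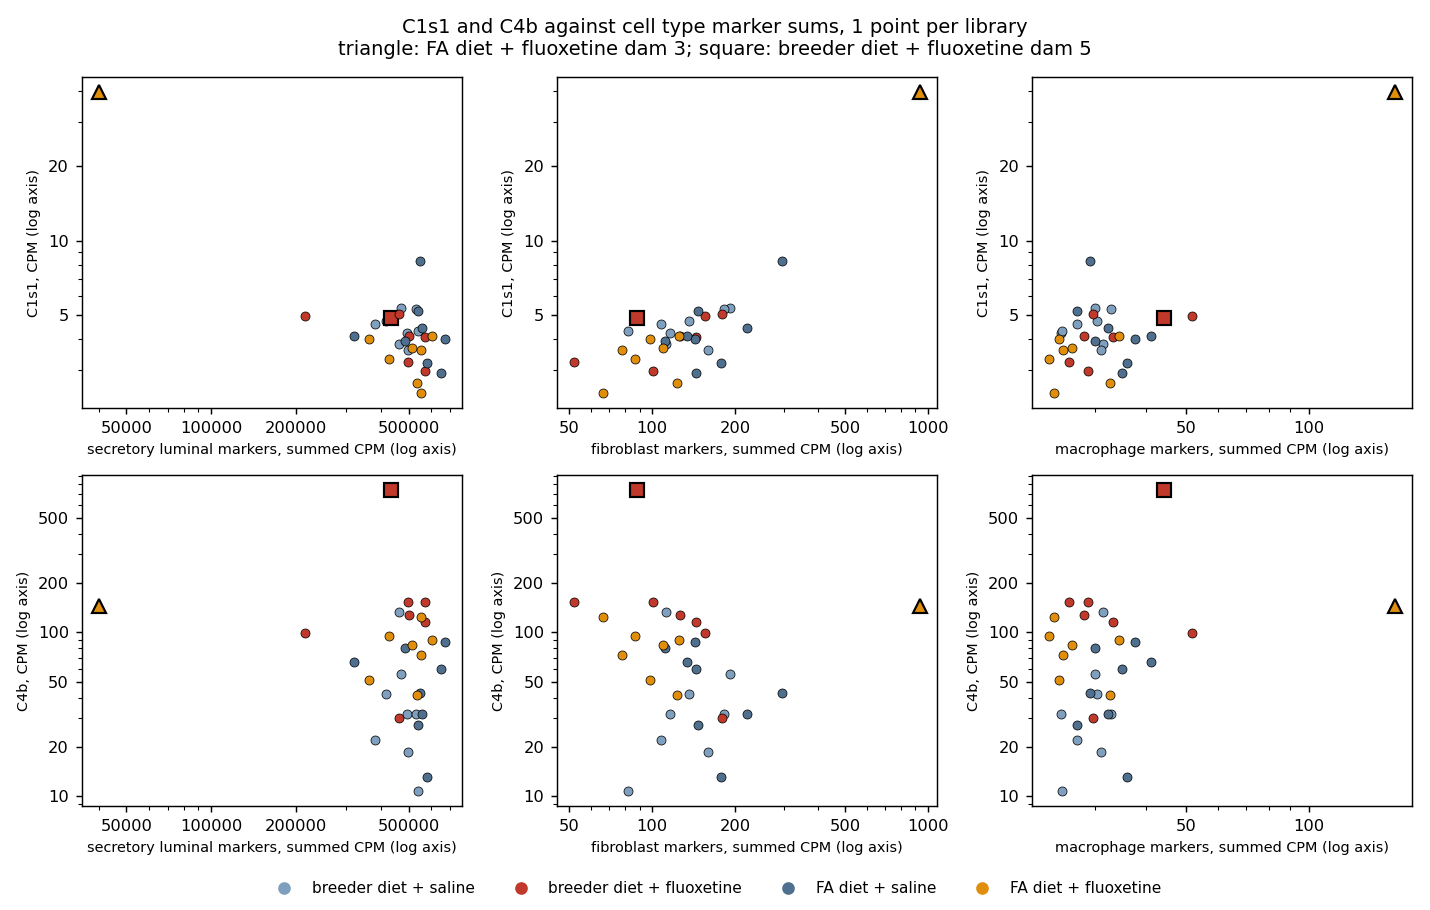
*C1s1* (upper row) and *C4b* (lower row) in CPM against the summed CPM of secretory luminal, fibroblast and macrophage markers, all on log axes, with 1 point per library coloured by group, a triangle for FA diet + fluoxetine dam 3 and a square for breeder diet + fluoxetine dam 5. The triangle lies at the luminal minimum of 39980 CPM and the fibroblast maximum of 936.7 CPM, where *C1s1* is at its highest and *C4b* is within the spread of the other fluoxetine libraries.

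*C4b* encodes complement C4, the protein cut by C1s. Since the gene was chosen on this contrast, its fluoxetine values are a description with no test. In breeder diet + saline dams *C4b* ran from 10.7 to 132.3 CPM with a median of 31.9, and in breeder diet + fluoxetine dams from 30.2 to 732.6 CPM with a median of 128.2. In FA diet + saline dams it ran from 13.2 to 87.2 CPM with a median of 51.0, and in FA diet + fluoxetine dams from 41.5 to 143.8 CPM with a median of 86.5. The groups overlapped on both diets, and 13 of the 15 fluoxetine dams were above the saline median of their diet, 6 of 7 on the breeder diet and 7 of 8 on the FA diet.

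On the breeder diet *C4b* had a mean of 43.1 ± 38.6 CPM (SD, n = 8) with saline and 201.6 ± 237.8 (n = 7) with fluoxetine. On the FA diet it had 50.9 ± 26.5 (n = 8) with saline and 87.6 ± 34.2 (n = 8) with fluoxetine. Breeder diet + fluoxetine dam 5, at 732.6 CPM, was 4.80-fold above the next library, and without it the mean of its group was 113.1 ± 45.6 CPM. The fitted log2 fold change over both diets was 1.504 (SE 0.367, 2.84-fold), and 52 of the 14362 genes had a larger one. Leaving out 1 library at a time moved it from 1.09, without breeder diet + fluoxetine dam 5, to 1.76, without breeder diet + saline dam 3, and it was 1.43 without FA diet + fluoxetine dam 3. On the breeder diet the log2 fold change was 2.23 (SE 0.534), or 1.39 without dam 5, and on the FA diet 0.78 (SE 0.504), or 0.63 without dam 3.

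**Figure D2:**
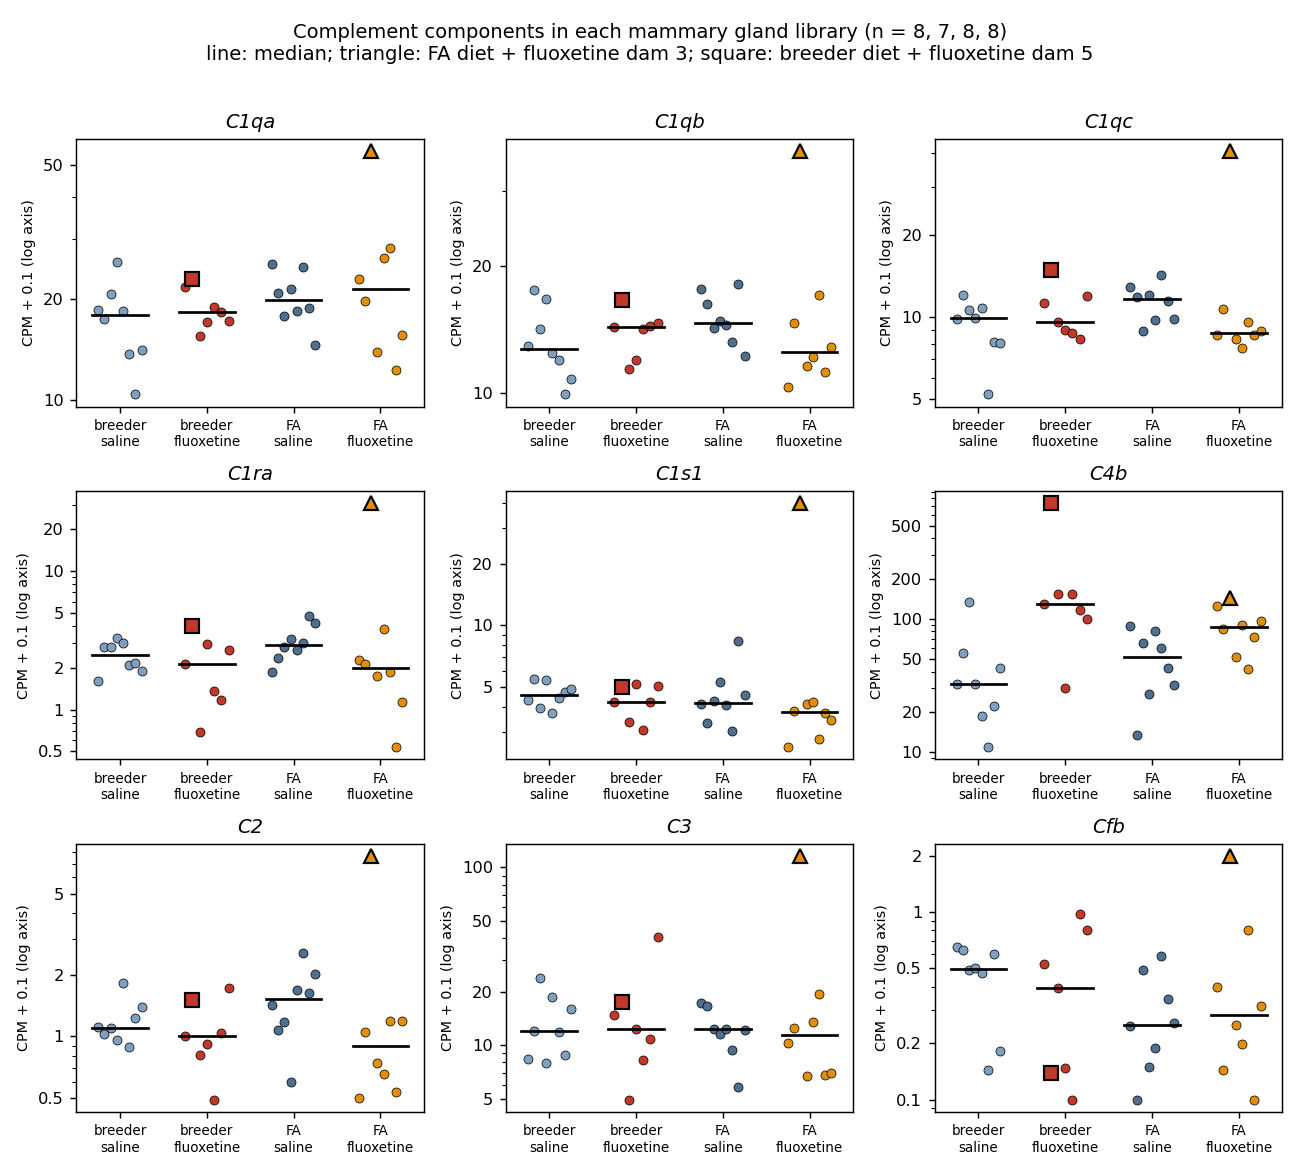
CPM of each of the 9 components in every library (log axis, 0.1 added so that values of 0 can be drawn) for breeder diet + saline, breeder diet + fluoxetine, FA diet + saline and FA diet + fluoxetine, with the group median as a line. *C4b* medians are 31.9, 128.2, 51.0 and 86.5 CPM, while for most other components the single high point is FA diet + fluoxetine dam 3 (triangle), and breeder diet + fluoxetine dam 5 (square) is the highest for *C4b* only.

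Fluoxetine was compared with saline over both diets for the other 8 components with edgeR's quasi-likelihood test. This test called 3 of the 14362 genes, 0.0209%, and none of the 8 was among them. At an unadjusted p of 0.05 or below it listed 1425 genes, 9.92%, against 0 of the 8. All 8 fitted changes were above 0, from 0.016 for *C2* to 0.61 for *C3* with a median of 0.27, where 53.5% of all genes tested were above 0 with a median of 0.02. This common direction rested on FA diet + fluoxetine dam 3. Without that library 3 of the 8 were above 0 and 5 below, with a median of -0.10, and 48.4% of all genes were above 0.

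The C1q recognition genes had the smallest standard errors of the 9. *C1qa* had medians of 17.8 CPM with saline and 18.2 with fluoxetine on the breeder diet and of 19.7 and 21.2 CPM on the FA diet, and 8 of 15 fluoxetine dams were above the saline median of their diet. Outside dam 3, at 54.9 CPM, the other 30 libraries lay between 10.3 and 28.1. Its log2 fold change was 0.19 (SE 0.154, edgeR adjusted p = 0.706), or 0.03 without dam 3. *C1qb*, with medians of 12.6 and 14.2 CPM on the breeder diet and 14.5 and 12.4 CPM on the FA diet, had a log2 fold change of 0.07 (SE 0.136, adjusted p = 0.892), or -0.09 without dam 3. *C1qc* had means of 9.22 ± 2.14 CPM (SD, n = 8) with saline and 10.4 ± 2.36 (n = 7) with fluoxetine on the breeder diet. On the FA diet they were 11.3 ± 1.79 (n = 8) and 12.8 ± 11.2 (n = 8). Its medians were lower with fluoxetine, at 9.80 and 9.47 CPM on the breeder diet and 11.5 and 8.62 CPM on the FA diet. Of the 15 fluoxetine dams, 4 were above the saline median of their diet. The log2 fold change of *C1qc* was 0.19 (SE 0.186, adjusted p = 0.775), or -0.10 without dam 3. Saline and fluoxetine dams overlapped for all 3 genes.

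The genes of the C1 proteases gave no call either. *C1s1* was between 2.94 and 8.25 CPM in the 16 saline dams and between 2.43 and 5.04 in 14 of the 15 fluoxetine dams, with 39.6 CPM in dam 3. Its log2 fold change was 0.37 (SE 0.306, adjusted p = 0.717), and -0.26 (unadjusted p = 0.0539) without dam 3. *C1ra* was between 1.51 and 4.61 CPM in saline dams and between 0.437 and 3.90 in the same 14 fluoxetine dams, with 30.5 CPM in dam 3. It had a log2 fold change of 0.34 (SE 0.403, adjusted p = 0.815), and -0.46 (unadjusted p = 0.0542) without dam 3. Of the 15 fluoxetine dams, 5 were above the saline median of their diet for each protease gene.

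*C2* encodes the protein that joins C4 in the C3-cutting enzyme. On the breeder diet its median was 1.003 CPM with saline and 0.900 with fluoxetine, and on the FA diet 1.43 with saline and 0.796 with fluoxetine. Only 3 of 15 fluoxetine dams exceeded the saline median of their diet, yet the fitted log2 fold change was 0.016 (SE 0.333, adjusted p = 0.994), with dam 3 at 7.53 CPM. Without dam 3 the change was -0.56 (SE 0.231, unadjusted p = 0.0206, adjusted p = 0.472), opposite in sign to that of *C4b*, and *C2* was then the 1 of the 8 at an unadjusted p of 0.05 or below, beside 9.21% of all genes.

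*C3* is the central component and *Cfb* the protease of the alternative loop. *C3* ran from 5.74 to 23.6 CPM in saline dams and from 4.85 to 115.7 in fluoxetine dams, with medians of 12.04 and 12.2 CPM. The 2 highest libraries were FA diet + fluoxetine dam 3 at 115.7 and breeder diet + fluoxetine dam 13 at 40.6 CPM, and 8 of 15 fluoxetine dams were above the saline median of their diet. The log2 fold change of *C3* was 0.61 (SE 0.366, adjusted p = 0.586), and 0.02 without dam 3. *Cfb* was the scarcest component by counts, listed at 0 in 3 libraries and at most 1.89 CPM, in dam 3. Its reads in exons shared with other genes may have been left uncounted. Its log2 fold change was 0.54 (SE 0.560, adjusted p = 0.784), and 0.03 without dam 3.

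**Figure D3:**
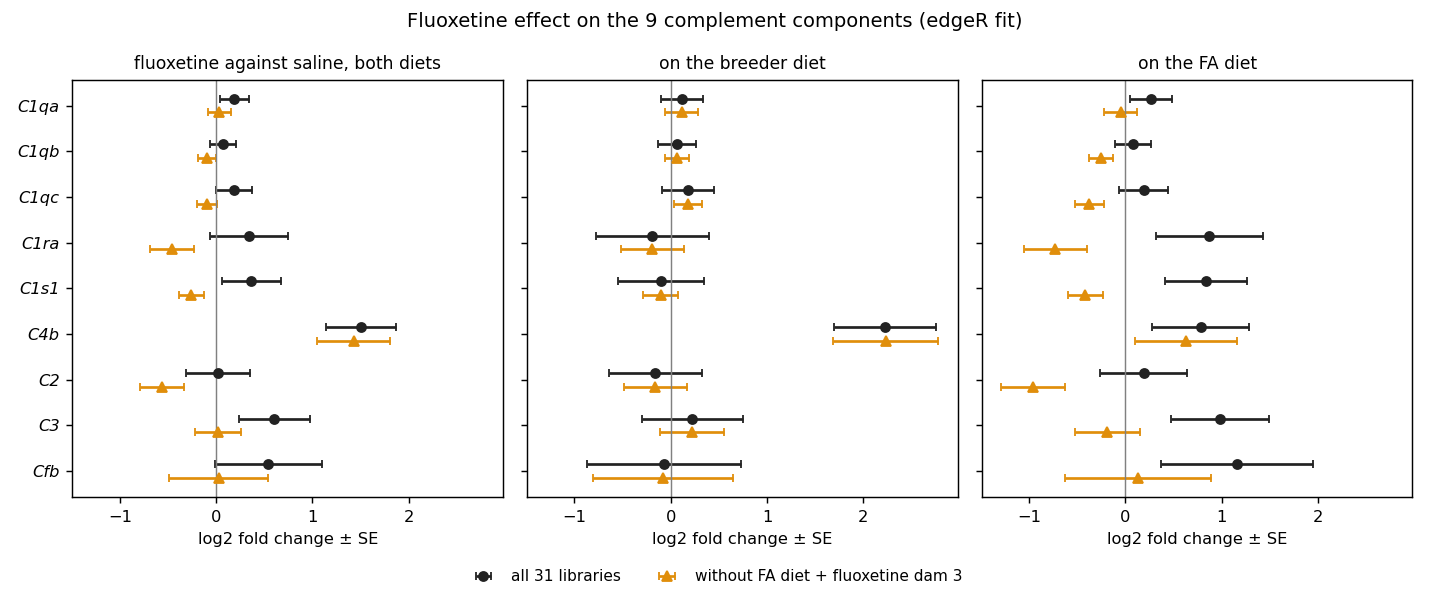
Fitted log2 fold change ± SE of the 9 components with fluoxetine over both diets, on the breeder diet and on the FA diet, with circles for all 31 libraries and triangles without FA diet + fluoxetine dam 3. *C4b* moves little between circle and triangle (1.504 and 1.43 over both diets), whereas *C3* goes from 0.61 to 0.02 and *C1ra* from 0.34 to -0.46.

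Within each diet the drug contrasts use the same libraries as the overall one. No gene of 14362 passed the FDR on the breeder diet (0%) or on the FA diet (0%) by the quasi-likelihood test. Unadjusted p-values of 0.05 or below were given to 630 genes (4.39%) and 1434 genes (9.98%), and at the FDR the likelihood ratio test called 5 and 4 genes and DESeq2 4 and 16. On the breeder diet the other 8 components split into 4 higher and 4 lower, from -0.19 for *C1ra* to 0.23 for *C3*, with a median of -0.00029 and none at an unadjusted p of 0.05 or below, also without FA diet + fluoxetine dam 3, where 6.12% of all genes were. On the FA diet all 8 were higher, from 0.08 for *C1qb* to 1.16 for *Cfb*, again with none at that p. Without dam 3 the FA diet values were 1 higher and 7 lower with a median of -0.31. 4 of the 8 then had an unadjusted p of 0.05 or below, beside 6.11% of all genes, and all 4 were lower with fluoxetine: *C2* at -0.96 (SE 0.329), *C1ra* at -0.73, *C1s1* at -0.42 and *C1qc* at -0.37. None passed the FDR, with adjusted p-values from 0.733 to 0.792 in edgeR. Dam 3 was the highest library for all 8, so leaving it out lowers these values by itself. The 4 are therefore a description, not a test. Some marker sums had other medians with fluoxetine than with saline in the same libraries. In the 8 FA diet + saline dams and the 7 FA diet + fluoxetine dams without dam 3, the fibroblast sum had medians of 145.2 CPM (111.6 to 295.9) and 98.4 CPM (66.6 to 125.2), the macrophage sum 33.5 CPM (26.99 to 41.1) and 24.99 CPM (23.1 to 34.2), and the myoepithelial sum 332.6 CPM (258.2 to 426.0) and 242.2 CPM (164.3 to 366.9). The endothelial sum had medians of 35.99 and 42.06 CPM, the adipocyte sum 242.2 and 254.8 CPM and the luminal sum 551800 and 533700 CPM, each with ranges that overlapped. On the breeder diet the medians with saline and with fluoxetine were 125.9 and 126.4 CPM for fibroblasts, 30.1 and 29.7 CPM for macrophages and 296.4 and 218.3 CPM for myoepithelial cells. With saline and fluoxetine, skeletal muscle medians were 94.5 and 27.2 CPM on the FA diet without dam 3. On the breeder diet they were 255.8 and 124.1 CPM. The B and plasma cell medians were 163.6 and 130.2 CPM, then 165.8 and 144.7 CPM, in the same order of diets. For neutrophils they were 0.927 and 1.09 CPM, then 1.05 and 1.56 CPM. The adipocyte medians on the breeder diet were 215.3 and 251.6 CPM. The part of all these markers in the drug values of the components was not tested.

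FA was compared with the breeder diet over both drugs, a contrast that the choice of *C4b* did not use. The test called 0 of 14362 genes (0%), and the likelihood ratio test and DESeq2 called 0 as well. An unadjusted p no higher than 0.05 was found for 729 genes, 5.08%. *C4b* had a log2 fold change of -0.48 (SE 0.361, edgeR unadjusted p = 0.194, adjusted p = 0.943). This was -0.06 without breeder diet + fluoxetine dam 5 and -0.56 without FA diet + fluoxetine dam 3. Of the other 8 components, 7 were higher and 1, *Cfb*, lower with FA, with a median of 0.30. *C1ra* was the 1 at an unadjusted p of 0.05 or below, at 0.88 (SE 0.406, unadjusted p = 0.0384, adjusted p = 0.933), and it was 0.08 without dam 3. Without that library the 8 split into 4 higher and 4 lower, with a median of -0.0023 and 0 at that p, beside 6.99% of all genes.

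The interaction asked whether the fluoxetine effect differed between the diets. It was called for 0 genes (0%) by the quasi-likelihood test, the likelihood ratio test and DESeq2, with 552 genes (3.84%) at an unadjusted p of 0.05 or below. For *C4b* the effect on the FA diet was below that on the breeder diet, with a log2 difference of -1.44 (SE 0.723). It is a description with no test, since it is made from the fluoxetine values on which *C4b* was chosen. This difference was -0.61 without breeder diet + fluoxetine dam 5 and -1.61 without FA diet + fluoxetine dam 3. The other 8 components all had interaction values above 0, from 0.0070 for *C1qc* to 1.23 for *Cfb* with a median of 0.55, opposite in sign to *C4b*, and none at that p. Without dam 3, 7 of the 8 were below 0 with a median of -0.37, and *C1qc*, at -0.55 (unadjusted p = 0.0132, adjusted p = 0.997), was the 1 at that p beside 3.48% of all genes.

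The other complement pathway genes were read from a list of 43, ordered by role, of which 23 had enough counts. With fluoxetine 13 were higher and 10 lower, 0 passed the FDR and 2 had an unadjusted p of 0.05 or below, beside 9.92% of all genes, with a median of 0.18. Without FA diet + fluoxetine dam 3, 10 were higher and 13 lower with a median of -0.0083. The 2 were *C4a*, the copy of *C4b*, at 0.87 (SE 0.339, edgeR unadjusted p = 0.0144, adjusted p = 0.417), and *Cd59a*, whose product blocks the membrane attack pore, at 0.52 (SE 0.179, unadjusted p = 0.00681, adjusted p = 0.383). Without dam 3 they were 0.75 and 0.39. *C4a* ran from 0 to 1.49 CPM in saline dams with a median of 0.557, and from 0.447 to 2.48 CPM in fluoxetine dams with a median of 1.08, and the groups overlapped.

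By role, the most abundant of the classical pathway copies was *C1s2*, a relative of *C1s1*, with a log2 fold change of 0.26 (SE 0.198). In the lectin pathway, which starts from sugar-binding proteins, only *Fcna* of 8 genes had enough counts (-0.13, SE 0.183). Its proteases were near the limit of detection, with 145 counts for *Masp1* and 110 for *Masp2* over all libraries, and *Mbl2* and *Fcnb* had 0. Factor D, the protease that activates factor B and a known product of adipocytes, was abundant at a mean of 164.6 CPM for *Cfd* with a log2 fold change of -0.18 (SE 0.281). In the terminal pathway 3 of 7 genes were tested, led by *C8g* (-0.23, SE 0.217), and *C8b* had 0 counts.

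Among the regulators, *Clu*, a soluble inhibitor of the terminal pore that also acts as a chaperone, had a mean of 731.3 CPM and a log2 fold change of -0.22 (SE 0.183). *Cd55*, which breaks up the C3-cutting enzymes on cell surfaces, was at -0.23 (SE 0.132). Among the receptors, the most abundant, *Itgax*, was at 0.18 (SE 0.138). Of other genes, named after their values were seen, the receptor gene *C5ar1* was at 0.84 (0.20 without dam 3), the C1 inhibitor gene *Serping1* at 0.70 (-0.20) and the properdin gene *Cfp* at 0.68 (0.12). None of these was called.

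With FA, 16 of the 23 were higher and 7 lower, 0 were called and 4 had an unadjusted p of 0.05 or below, beside 5.08% of all genes, among them *Serping1* at 0.92, *Fcna* at 0.39 and *C1s2* at -0.47. Without dam 3 these 3 were 0.02, 0.28 and -0.45, and 1 of the 23, *C1s2*, was at that p, beside 6.99% of all genes. *Serping1* stood at 61.1 CPM in dam 3 and between 1.006 and 6.17 CPM in the other 30 libraries. For the interaction 17 were above 0 and 6 below, 0 were called, and *Clu*, at -0.76, was the 1 gene at that p, beside 3.84% of all genes. Without dam 3, 9 were above 0 and 14 below, and *Clu*, at -0.61, was again the 1 gene.

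**Figure D4:**
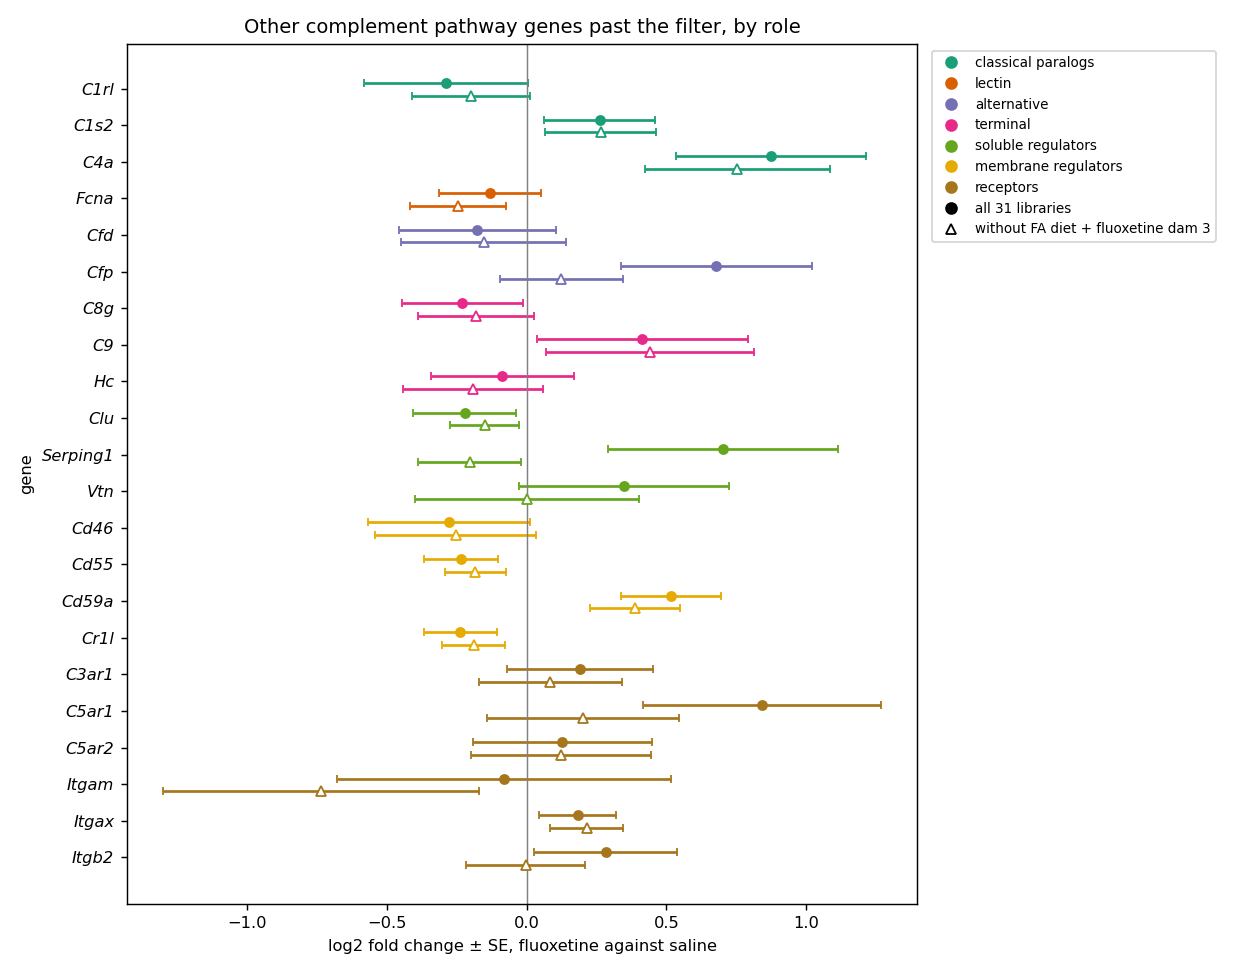
Fitted log2 fold change ± SE with fluoxetine of 22 tested complement pathway genes beyond the 9 components, coloured by role, with filled circles for all 31 libraries and open triangles without FA diet + fluoxetine dam 3. *C4a* (0.87 and 0.75) and *Cd59a* (0.52 and 0.39) stay to the right of 0, while *Serping1* goes from 0.70 to -0.20.

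Genes that encode or carry the signals known to induce complement genes were read beside the components. Of 15 listed cytokine, receptor and transcription factor genes, 11 were tested, 8 were higher with fluoxetine and 0 were called, with a median of 0.13. Without dam 3, 3 were higher and the median was -0.05. *Stat3*, which carries interleukin signals, was at 0.18 (edgeR unadjusted p = 0.252) and *Nfkb1*, a subunit of NF-kB, at 0.15 (unadjusted p = 0.283). Without dam 3 *Stat3* was at 0.07 and *Nfkb1* at -0.03. The 9 acute-phase genes, which were picked in part from the study's own list on these libraries and are no independent evidence of direction, were all higher with a median of 2.21. The quasi-likelihood test called 0 of them, the likelihood ratio test 4 and DESeq2 6, where these called 0.0209%, 0.313% and 0.487% of genes, and 7 had an unadjusted p no higher than 0.05, beside 9.92% of all genes. The lowest p-values belonged to *Orm2*, an orosomucoid gene, at 2.21 (SE 0.538, adjusted p = 0.203), and *Slpi*, a protease inhibitor gene, at 2.28 (SE 0.568, adjusted p = 0.230). Breeder diet + fluoxetine dam 13 was the highest of the 31 libraries for 7 of the 9 genes. Outside FA diet + fluoxetine dam 3, it also had the lowest luminal marker sum (215200 CPM) and the highest macrophage marker sum (51.9 CPM). The part of these markers in its acute-phase values was not tested. In this breeder diet library *Slpi* stood at 323.8 CPM, with 23.9 CPM in the next library. The medians of *Slpi* were 6.01 CPM with fluoxetine and 3.27 with saline. *Orm2* stood at 375.8 CPM in the same library, with 85.1 in the next and medians of 29.3 and 8.73. Without that dam *Slpi* was at 0.92 (SE 0.328, adjusted p = 0.395) and *Orm2* at 1.33 (SE 0.412, adjusted p = 0.333), and 8 of the 9 genes were higher with a median of 1.33. Like *C4b*, all 9 had an interaction value below 0, with a median of -1.03, but 7 of the 9 with a median of -0.58 without breeder diet + fluoxetine dam 13. Without dam 3 all 9 were again higher with fluoxetine (median 1.95) and below 0 for the interaction (median -2.42).

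Likeness from dam to dam was measured between the components. Taking each library's log2 CPM as a deviation from its group mean, *C4b* had a median Pearson r of 0.20 with the other 8, from 0.13 to 0.39, over 31 libraries. The 28 pairs among those 8 had a median r of 0.68, from 0.38 to 0.82. Without FA diet + fluoxetine dam 3 *C4b* had a median r of 0.13, from -0.04 to 0.44, and the 28 pairs one of 0.26, from -0.18 to 0.61, so much of the likeness among the 8 rested on that library. In those 30 libraries *C4b* was not set apart, since *C1s1* had a lower median r with the other 8 components (-0.0060) and *Cfb* a similar one (0.14). The 3 pairs of C1q genes had a median r of 0.79, and of 0.52 without dam 3.

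The genes most like *C4b* among 11446 with a mean of at least 1 CPM were *Lrg1*, a known acute-phase gene (r 0.695), *Mindy1* (0.692), *Junb*, an AP-1 transcription factor gene (0.663), *Klf6*, a zinc-finger factor gene (0.659) and *Prkcz*, a protein kinase gene (0.654). Without dam 3 these were 0.642 to 0.687, and 4 of the 5 stayed among the 5 most alike. For *C3* they were *Lyz2* (0.856), *Cebpa* (0.846), *Prkar2b* (0.831), *Gsn* (0.829) and *Igfbp4* (0.823), with 0.612 to 0.735 without dam 3, when *Hp*, the haptoglobin gene, came first (0.777) and 2 of the 5 stayed. For *C1qa* they were *Tmsb4x* (0.809), the MHC class II gene *H2-Ab1* (0.808), *Apoe* (0.805) and the chemokine genes *Ccl9* (0.802) and *Ccl6* (0.789), with 0.633 to 0.681 without dam 3. None of these 5 stayed in the list without dam 3, which was *Uqcrq* (0.729), *Gmfg* (0.720), *Mrpl14* (0.715), *Smim22* (0.714) and *Chmp2a* (0.707), so the list of *C1qa* depended on that library.

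**Figure D5:**
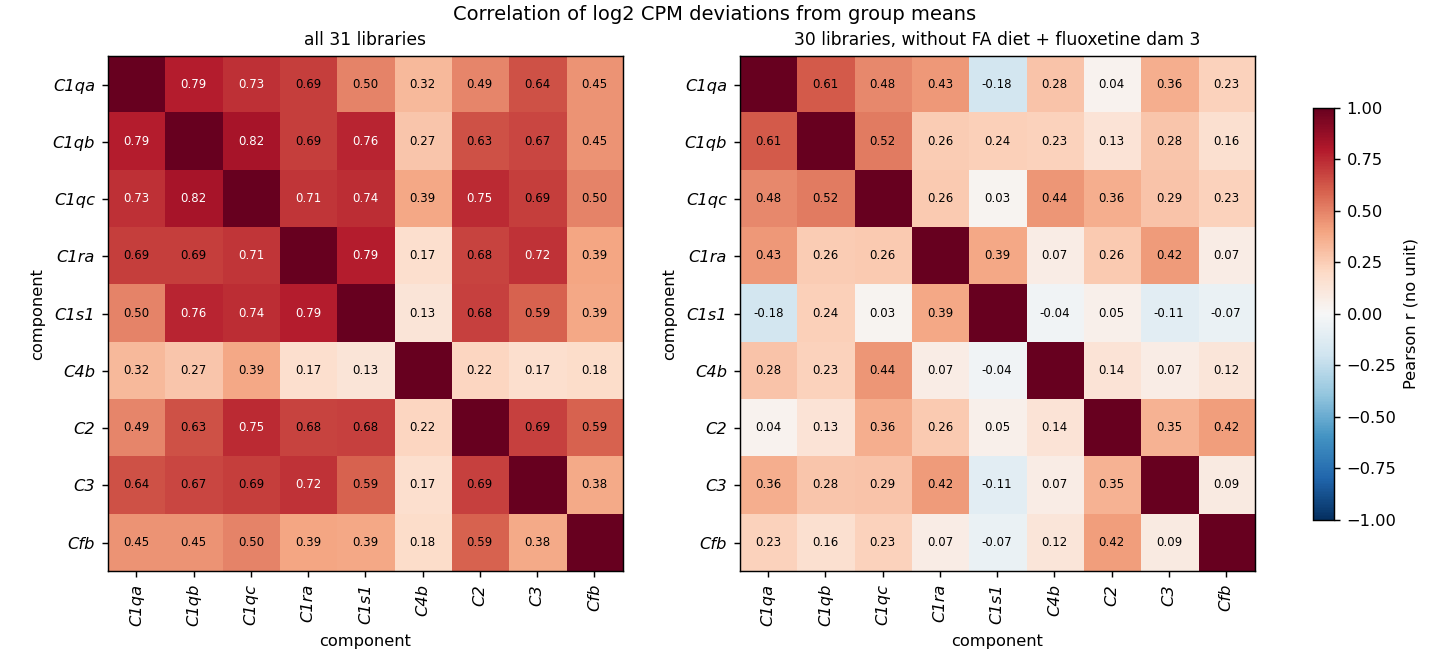
Pearson r between the log2 CPM deviations from group means of the 9 components, as coloured cells from -1 to 1, over all 31 libraries (left) and over 30 without FA diet + fluoxetine dam 3 (right). The row of *C4b* is the palest on the left (median r 0.20), the row of *C1s1* is paler than that of *C4b* on the right (medians -0.0060 and 0.13), and the block of the other 8 fades from a median of 0.68 to 0.26.

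The genome around *C4b* holds 18 other annotated genes within 100 kb, of which 9 were tested. With fluoxetine 7 were higher, 0 were called and for 4 the unadjusted p was no higher than 0.05, beside 9.92% of all genes. Without dam 3 these counts were 6, 0 and 3, beside 9.21%. Among both the 4 and the 3 was *C4a*, already counted above among the pathway genes. The lowest p-values were those of *Cyp21a2-ps*, a pseudogene next to *C4b*, at 2.34 (SE 0.793, edgeR unadjusted p = 0.00577, adjusted p = 0.365; 2.11 without dam 3) with a mean of 0.353 CPM, and *Stk19*, next to *C4a*, at 0.41 (SE 0.142, unadjusted p = 0.00723, adjusted p = 0.388; 0.38 without dam 3) with 10.7 CPM.

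RefSeq promoter sequences (table of build GRCm38.p6, from 250 bases before to 50 after the start) matched 5 of the 9 components, *C3*, *C1qb*, *C1qc*, *C1ra* and *C1s1*. They were searched on both strands for NF-kB letters (GGGNN followed at once by TTTCC, or GGGNNNTCC, which can overlap), STAT letters (TTCNNNGAA), interferon-response letters (GAAANN followed at once by GAAA) and C/EBP letters (TTNCNNAA). Among all 32544 promoters, 18.9%, 8.33%, 3.45% and 40.7% held them. *C3* had 1 NF-kB and 3 C/EBP matches, *C1qc* 1 and 1, and *C1ra* 1 STAT and 3 C/EBP matches. The *C1s1* promoters held C/EBP letters only, and *C1qb* had no match. The 250 bases before the start of *C3* are shown because they held the most matches, read on the minus strand, where they matched GRCm39 at chr17:57535137-57535386, with the matches in capitals.
C3: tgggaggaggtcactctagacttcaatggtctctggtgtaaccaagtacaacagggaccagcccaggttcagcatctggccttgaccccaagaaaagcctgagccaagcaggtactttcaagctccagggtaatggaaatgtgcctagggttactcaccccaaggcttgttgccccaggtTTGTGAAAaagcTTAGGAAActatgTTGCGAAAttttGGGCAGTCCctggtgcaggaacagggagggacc
A match of letters describes this window only, and no binding was measured.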

How the data were processed

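The authors trimmed reads with Trim Galore 0.4.4, checked them with FastQC 0.11.7, aligned polyA RNA-seq of each dam's gland to GRCm39 with Hisat2 and counted with htseq-count in intersection-nonempty mode. The annotation release and strand option are not given in the sources used here. They deposited raw counts for 55379 genes per library, of which 54712 matched the GENCODE vM39 annotation. Groups follow the sample labels.

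From these counts, filterByExpr kept 14362 genes (41017 removed). edgeR 4.0.16 in R 4.3.3 fitted the 4 group means with TMM scaling and robust quasi-likelihood tests, and Benjamini-Hochberg adjustment ran over all 14362. No p-value is given for *C4b* with fluoxetine or for its interaction. CPM are TMM-scaled, log2 CPM used a prior count of 2, and ± marks the SD. The common dispersion was 0.169, and no libraries were near-identical. The labels tie no dam to another, so dams were treated as unrelated and p-values measure the spread between dams of a group. The tests were run on simulated data first. Alternatives were edgeR's likelihood ratio test, DESeq2 1.42.0, no filter, a 1 CPM filter, RLE scaling, leaving out the 20 most abundant genes, no robust step, a replicate block and leaving out each library. Correlations without breeder diet + fluoxetine dam 5 were added after seeing the data.

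The members, lists and tests were chosen with earlier results of these data known. Genes named by rule are the 9 components, *C4a* and the most abundant gene of each pathway and marker list. Pathway genes with a fluoxetine p of 0.01 or below are also named by rule. So are the inducer, acute-phase and neighbouring genes with the 2 lowest p-values each, and the 5 genes most like *C4b*, *C3* and *C1qa*. Other genes fall outside these rules and were named after their values were seen. They include *C5ar1*, *Serping1*, *Cfp*, *Masp1*, *Masp2*, pathway genes without counts and single markers such as *Elf5*, *Krt8*, *Krt18*, *Mertk*, *Kdr* and *Pecam1*. The values of 1 pathway gene, which is included in the counts over its list, are not reported here.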

Additional observations from a re-analysis of the deposited data

Results flagged for a closer look

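FA diet + fluoxetine dam 3 was set apart from the 7 other dams of its group by more than Dixon's limit for *C3* (log2 CPM 6.86), *C2* (2.93), *C1qb* (5.22), *C1qc* (5.34) and *C1s1* (5.31). These were 5 of 36 checks, 1 for each component in each group, and all 5 were this library. Chance alone sets off about 1 check in 20, and checks on the same library are not independent. This dam also had the lowest luminal and the highest fibroblast, macrophage and adipocyte marker sums of all 31 libraries, and the part of tissue composition in the 5 values was not tested.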

How the results depend on the processing

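The quasi-likelihood test called 3 genes for fluoxetine. The likelihood ratio test called 45, DESeq2 70, the fit with no filter 1 and the replicate block 0, and leaving out 1 library gave 0 to 19. Within the breeder diet, where the main test called 0, the likelihood ratio test called 5 and DESeq2 4, and within the FA diet 4 and 16, with 0 to 1 when 1 library was left out. None of the other 8 components was called for any contrast in these fits, and *C4b* kept its direction with fluoxetine in all of them. Signs of several components did turn. With no filter *C2* was at -0.0042 with fluoxetine, and the interaction was -0.0028 for *C1qb* and -0.013 for *C1qc*. DESeq2 gave *C1qc* -0.077 with fluoxetine, -0.52 for the interaction and -0.34 on the FA diet, *C1ra* -0.43, -0.47 and -0.67, and *C1s1* -0.23, -0.25 and -0.35 with -0.14 for FA. It had replaced the count of FA diet + fluoxetine dam 3 as an outlier for these 3 genes, from 2316 to 553 for *C1qc*, 1747 to 131 for *C1ra* and 2266 to 233 for *C1s1*.

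Whether dam numbers pair the groups was not settled. The 28 same-numbered pairs had a median r of 0.079, from -0.22 to 0.429, against -0.007 for other pairs. Of the 28, 12 were over 0.1, a share not counted for the other pairs. As for single libraries, 4 were closest to their own number. With the replicate block, fluoxetine gave -0.077 for *C3*, -0.23 for *C2* and -0.22 for *C1ra*, the breeder diet gave -0.28 for *C3* and 0.14 for *C1s1*, the FA diet gave -0.42 for *C2*, -0.019 for *C1qb*, -0.059 for *C1qc* and -0.13 for *C1ra*, FA gave -0.060 for *C1s1*, and the interaction was -0.38 for *C2*, -0.048 for *C1qa*, -0.087 for *C1qb* and -0.51 for *C1qc*. The cause of these changes was not tested.

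Leaving out 1 library at a time turned the sign of 24 results of the 9 components, 19 of them through FA diet + fluoxetine dam 3 alone. For these components it turned 58 values, 22 without that dam and 36 without another library. Outside these counts, the FA value of *C4a* (-0.29 to 0.022) and the interaction median of the other pathway genes also turned. The interaction of *C1qc* was below 0 in 15 of 31 such fits and that of *C1qb* in 9, and *C2* with fluoxetine in 8. The FA value of *C4b* ranged from -0.58 to -0.06, the latter without breeder diet + fluoxetine dam 5. With fluoxetine the ranges were -0.56 to 0.092 for *C2*, -0.093 to 0.11 for *C1qb*, -0.10 to 0.22 for *C1qc*, -0.46 to 0.43 for *C1ra* and -0.26 to 0.45 for *C1s1*. With FA they were -0.34 to 0.47 for *C3*, -0.021 to 0.64 for *C2* and -0.15 to 0.53 for *C1s1*. On the breeder diet they were -0.23 (without breeder diet + fluoxetine dam 13) to 0.40 for *C3* and -0.47 to 0.15 for *Cfb*. On the FA diet they were -0.19 to 1.13 for *C3*, -0.96 to 0.33 for *C2*, -0.047 to 0.36 for *C1qa*, -0.25 to 0.15 for *C1qb*, -0.37 to 0.26 for *C1qc*, -0.73 to 1.05 for *C1ra* and -0.42 to 0.99 for *C1s1*. The interaction ranged from -0.41 to 1.21 for *C3*, -0.80 to 0.52 for *C2*, -0.16 to 0.25 for *C1qa*, -0.32 to 0.082 for *C1qb*, -0.55 to 0.11 for *C1qc*, -0.54 to 1.29 for *C1ra* and -0.31 to 1.09 for *C1s1*, and its median over the other pathway genes from -0.10 to 0.42. *Cfb*, *C2* and *C4a* rest on few counts, which limits their precision.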

Other observations

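Breeder diet + fluoxetine dam 5, the highest library for *C4b*, also had the highest skeletal muscle marker sum (4514 CPM) and the highest neutrophil marker sum (5.31 CPM) of the 31 libraries. It was the highest library for 429 of the 14362 genes tested, 2.99%, and for 1 of the 9 components.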
